A study of Drosophila melanogaster with 3 samples.

Results

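Caup-eGFP binding was mapped by chromatin immunoprecipitation and sequencing in whole Drosophila melanogaster embryos, and 534 of the 6056 peaks in the authors' optimal set lay in intergenic sequence away from any start of transcription. They were chosen by position alone, on dm6: the summit, the base of highest enrichment, lay outside every annotated gene body and more than 1000 bp from every annotated transcription start site (TSS). The 534 made up 8.82% of the set (Wilson 95% interval 8.13 to 9.56). Of these, 357 lay 1 to 5 kb from the nearest TSS and 177 lay farther away. The study has 1 group of 3 biological replicates, each of mixed-sex embryos aged 0 to 24 h from 1 transgenic line, caup-GFP, that carries caup with GFP at its C terminus, and the antibody was raised against GFP. Every stage and tissue of the embryo is averaged in such a sample, no untagged or differently treated group is part of the series, and the labels do not say whether the native gene was still active. Sonicated chromatin of 200 to 800 bp was used, and the lists hold no read counts, so depth is unknown and the p-values and intervals below cover only the spread between these samples or counting error.

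Caup is a homeodomain transcription factor of the TALE class and, with Ara and Mirr, makes up the Iroquois complex of the fly. These proteins bind the palindrome ACANNTGT in vitro and are known for setting up territories and sensory prepatterns in the notum, wing and eye, and in the embryo for the identity of a group of lateral body wall muscles. Intergenic DNA of the fly holds many enhancers, which act on genes to either side and sometimes across a neighbouring gene, so the gene beside a summit is a position and not a target. Each gap between protein-coding genes is therefore named here by the gene on each side.

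The sequences under the strongest of these summits are shown first, to set the bound DNA beside the words searched for in it. Each window spans 100 bp to each side of a summit, on the plus strand, from the RefSeq Release 6 assembly, which is dm6. Capitals mark matches on either strand to the palindrome, to the 5 words of 6 bases with the highest ratio of summit to flank share (ACTAGT, then AGTATG, then CTACAC, then ACACTG and then ATCTAG), and to the 8-mer CACTGAGA, which was picked after its values were seen. The 4 of highest signal value come first, from the arms whose sequence is printed here. One lies upstream of foxo, the forkhead factor of insulin signalling, and 3 lie in the gap between RFeSP and chinmo.
foxo, chr3R:14053502-14053702: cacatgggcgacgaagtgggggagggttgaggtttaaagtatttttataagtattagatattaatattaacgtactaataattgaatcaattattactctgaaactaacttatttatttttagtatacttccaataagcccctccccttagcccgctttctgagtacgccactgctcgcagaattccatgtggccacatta
RFeSP-chinmo gap, chr2L:1632727-1632927: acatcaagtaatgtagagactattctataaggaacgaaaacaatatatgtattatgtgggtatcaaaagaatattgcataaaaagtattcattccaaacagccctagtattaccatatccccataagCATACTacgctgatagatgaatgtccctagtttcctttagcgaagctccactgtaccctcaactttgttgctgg
RFeSP-chinmo gap, chr2L:1638663-1638863: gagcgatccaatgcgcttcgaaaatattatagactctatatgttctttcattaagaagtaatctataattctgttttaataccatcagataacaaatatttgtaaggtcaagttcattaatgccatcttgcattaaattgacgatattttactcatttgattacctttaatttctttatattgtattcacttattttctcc
RFeSP-chinmo gap, chr2L:1643386-1643586: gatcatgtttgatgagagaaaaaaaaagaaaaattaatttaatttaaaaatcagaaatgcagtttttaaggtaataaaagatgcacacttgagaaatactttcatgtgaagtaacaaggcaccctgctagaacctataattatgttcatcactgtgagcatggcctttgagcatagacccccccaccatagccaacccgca
None of these 4 windows held the palindrome, and only the first of the RFeSP-chinmo windows held any of the marked words, a single AGTATG. A pair of summits among the strongest, whose sequence is not printed here, did hold such words. That between Su(z)2 and CG13323 (2620) has ACACTG 19 bp to its left. That between blw and CycB (1967) has the palindrome 55 bp to its left.

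On the same arms, the 3 strongest summits with a palindrome within 100 bp lay beside Atf3, which encodes a bZIP factor, between the forkhead genes slp1 and slp2, and beside CG14207.
Atf3, chrX:1277086-1277286: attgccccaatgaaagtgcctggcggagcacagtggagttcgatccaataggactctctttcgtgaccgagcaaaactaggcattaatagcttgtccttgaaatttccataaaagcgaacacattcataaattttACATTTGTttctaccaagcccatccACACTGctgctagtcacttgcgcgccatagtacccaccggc
slp1-slp2 gap, chr2L:3832421-3832621: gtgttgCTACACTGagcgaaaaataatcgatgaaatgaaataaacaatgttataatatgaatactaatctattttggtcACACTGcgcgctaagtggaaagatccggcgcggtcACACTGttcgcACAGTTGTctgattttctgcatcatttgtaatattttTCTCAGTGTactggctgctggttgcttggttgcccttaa
CG14207, chrX:19604041-19604241: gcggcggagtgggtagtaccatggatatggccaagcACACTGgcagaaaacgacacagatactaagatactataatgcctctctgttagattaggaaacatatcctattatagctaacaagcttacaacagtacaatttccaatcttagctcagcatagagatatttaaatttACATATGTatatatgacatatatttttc
All 3 also held ACACTG, and the window between slp1 and slp2 held it 4 times. The slp1-slp2 window also holds the 8-mer CACTGAGA, and the next pair of windows are those of the strongest summits after it that do. The first of the pair lies beside noc, a zinc finger gene, and holds 2 copies, and the second lies beside the gustatory receptor gene Gr89a.
noc, chr2L:14502696-14502896: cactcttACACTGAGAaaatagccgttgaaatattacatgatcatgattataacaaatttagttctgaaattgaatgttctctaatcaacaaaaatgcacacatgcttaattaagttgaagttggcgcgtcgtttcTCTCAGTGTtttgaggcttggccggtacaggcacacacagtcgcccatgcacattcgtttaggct
Gr89a, chr3R:16497497-16497697: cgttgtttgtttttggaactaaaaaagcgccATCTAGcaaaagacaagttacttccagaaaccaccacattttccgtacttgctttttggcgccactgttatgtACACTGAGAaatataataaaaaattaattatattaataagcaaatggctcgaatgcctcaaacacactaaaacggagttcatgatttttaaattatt
The strongest intergenic summit beside caup itself held neither the palindrome nor the 8-mer.
ara-caup gap, chr3L:12606362-12606562: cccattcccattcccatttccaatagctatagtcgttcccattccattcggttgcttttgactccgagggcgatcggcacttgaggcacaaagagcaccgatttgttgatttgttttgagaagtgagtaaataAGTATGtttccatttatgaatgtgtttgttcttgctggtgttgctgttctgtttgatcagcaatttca

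Summits were described by the signal value, an enrichment statistic that the authors deposited for each region and that can be ranked only within a list. The strongest intergenic summit of all, at 2620, placed 39 among the 6056 peaks and lay 11975 bp from the nearest TSS, that of CG13323. Its gap runs from Su(z)2, a Polycomb group gene 27370 bp away, to CG13323, 9414 bp away. The region of this summit ranked 45 in replicate 1, 51 in replicate 2 and 33 in replicate 3, of 30000 regions in each list. The summit 3343 bp upstream of foxo had a signal value of 2066 and ranked 116, 70 and 82 in replicates 1, 2 and 3. A summit between blw and CycB, the gene for the mitotic cyclin B, lay 3338 bp from the TSS of CycB. It had a signal value of 1967 and ranked 114, 113 and 97. These regions stood near the top of every replicate's list. The other members of the 10 strongest, besides the 3 in the RFeSP-chinmo gap, lay in 4 gaps. These were between Aldh-III and wech (1833) and between CG8519 and ple, which encodes tyrosine hydroxylase (1675). The others were between CG34342 and Lkr, the leucokinin receptor gene (1652), and between CG11349 and CG7465 (1626). Of these 10, 4 lay within 300 bp of the body of a protein-coding gene: the summit near CG11349 was 45 bp from it, and that near wech was 88 bp from it. Since every annotated TSS was more than 1 kb away, the gene ends beside these 4 are 3′ ends. All 10 lay in the top 6056 regions of each of the 3 replicates.

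The gap with the most intergenic summits was that of 37.1 kb between RFeSP and chinmo. RFeSP encodes the Rieske iron-sulfur protein of the respiratory chain, and chinmo a BTB zinc finger factor known for the timing of neuronal fates. This gap held 12 intergenic summits, with signal values from 254.9 to 2038, and 9 of them lay in the top lists of all 3 replicates. The 3 strongest had signal values of 2038, 1917 and 1866 and lay 18431, 12495 and 7772 bp from the chinmo gene. The first ranked 77, 94 and 102 in replicates 1, 2 and 3, the second 239, 107 and 51, and the third 150, 104 and 91. All 3 summits were high in every replicate. The nearest TSS of each was that of a long non-coding RNA inside the gap, not that of chinmo. Close to chinmo, summits 1788 and 1585 bp from it lay only 203 bp apart, and the first, at 585.2, had no region over it in replicates 1 and 2 but ranked 607 in replicate 3.

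The other 4 of the 5 gaps with the most summits all lay on the left arm of chromosome 3. The gap from CG44362 to CG7560 held 10 summits in 27.3 kb, with signal values up to 603.8. The 75 kb gap between NijA, which encodes a ninjurin adhesion protein, and CG43245 also held 10, and its strongest had signal values of 1278 and 1269, with ranks of 342, 259 and 216 and of 495, 210 and 223. No summit lay in the part of that gap up to 38482 bp from NijA. The gap from scyl, a gene that restrains TOR signalling, to Dyro held 9 summits, none above 473.8, and the gap from hng3 to CG13898 held 8, up to 840.9. In each of the 5 gaps at least 4 summits were present in every top list. Beyond these, hry, the pair-rule repressor also known as hairy, was flanked by 7 summits, 6 of them in the 39.7 kb gap to SrpRbeta with signal values from 214.4 to 515.1.

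**Figure D1:**
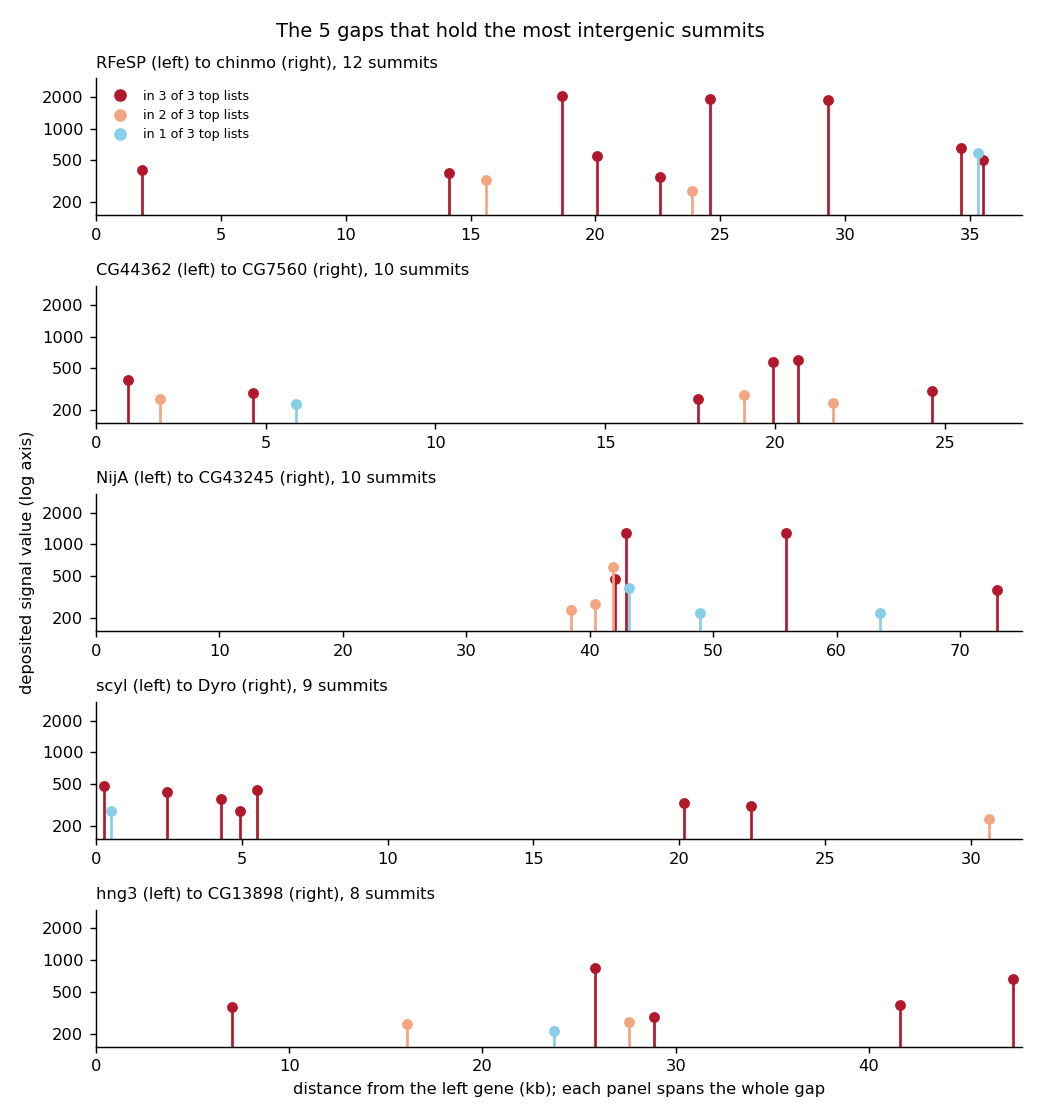
Each panel spans 1 of the 5 gaps between protein-coding genes that hold the most intergenic summits, with the distance from the left gene in kb on the x axis and the deposited signal value on a log y axis; colour gives the number of replicates whose top list holds the summit. The 3 tallest lines in the RFeSP to chinmo panel stand at 2038, 1917 and 1866, and the first 38 kb of the NijA panel are empty.

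Such clusters were the exception. Of 4056 gaps with any sequence that met the position rule, called eligible sequence here, 349 held a summit: 260 held 1, 53 held 2, 15 held 3 and 21 held 4 or more. Those 21 held 123 of the 534 summits, or 23.0%. The median distance from an intergenic summit to the next optimal summit of any kind was 4529.5 bp, and 51.9% had another within 5000 bp, against 66.8% of intronic summits over 1 kb from TSSs. In 18 pairs the peaks overlapped, and in replicate 3, for example, 14 intergenic summits shared their region with another of them, so neighbouring summits are not always separate sites in the replicates.

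Across the genome, intergenic summits thinned out with distance from genes. The 6 chromosome arms hold 33.64 Mb of eligible sequence, which gives 15.9 summits per Mb (exact Poisson 95% interval 14.6 to 17.3). The density was 29.6 per Mb (24.8 to 35.0) at 1 to 2 kb from a TSS, 24.7 (21.6 to 28.2) at 2 to 5 kb, 14.5 (11.9 to 17.6) at 5 to 10 kb, 11.6 (8.82 to 15) at 10 to 20 kb and 1.89 (1.06 to 3.12) beyond 20 kb. The intervals of neighbouring classes overlap between 1 and 5 kb and between 5 and 20 kb, and the other steps are larger than counting error. The same fall was seen from the edge of any gene body: 46.4 per Mb (32.5 to 64.2) within 250 bp, against 7.44 (6.21 to 8.85) beyond 5000 bp. Gene bodies that end within 1 kb of a member do so with their 3′ side, and 102 summits (19.1%) lay there. Short gaps were rich in summits: gaps of up to 5 kb between protein-coding genes had 41.7 per Mb (33.3 to 51.5), gaps of 5 to 20 kb 18.7 (16.0 to 21.7), gaps of 20 to 50 kb 21.9 (19.1 to 24.9) and gaps over 50 kb 4.61 (3.49 to 5.97). No summit lay in an annotated transposable element, and leaving those elements out of the eligible sequence gave 43.9 in the shortest and 5.42 in the longest gaps. The assembly marks a mean of 27.4% of the bases of eligible windows as repeats, against 20.2% in windows at intergenic summits. The densities were not corrected for such repeats, and their part in the fall was not tested.

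**Figure D2:**
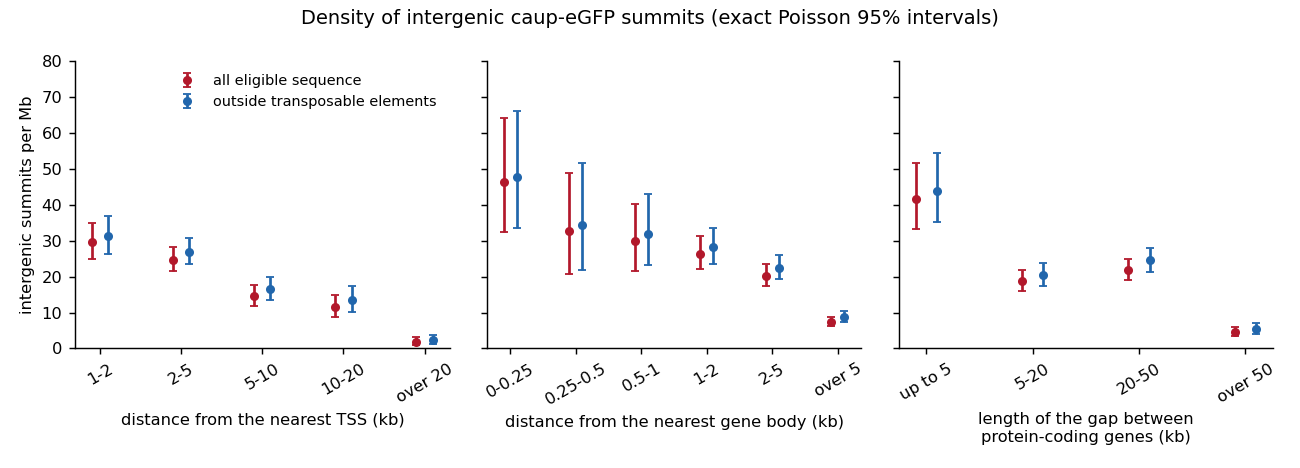
Intergenic summits per Mb of eligible sequence (y axis) by distance from the nearest TSS, by distance from the nearest gene body and by length of the gap between protein-coding genes, all in kb; points are densities and bars exact Poisson 95% intervals, red for all eligible sequence and blue for that outside transposable elements. Density falls from 29.6 to 1.89 per Mb over the TSS classes, and is 41.7 in the shortest and 4.61 in the longest gaps.

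The 5 summits farthest from any TSS were mostly weak. The summit at the greatest distance from any TSS, 37718 bp, lay between bab1 and bab2, paired BTB factor genes of leg and abdominal patterning, with a signal value of 261.8 and ranks of 4620, 6418 and 4190. A summit 33863 bp from vvl, which encodes a POU homeodomain factor, had a signal value of 344.5 and ranks of 2949, 3769 and 2728. The remaining 3 of the 5 farthest lay in the NijA-CG43245 gap, 33186 to 36566 bp from the TSS of CG43245, and the strongest of them, at 604.4, had no region over it in replicate 3. Summits over 5 kb from a TSS had a median signal value of 285.7, against 301 for those at 1 to 5 kb. At the edge of the rule, the nearest summits inside it lay 1006 bp from the TSS of Prip, an aquaporin gene (signal value 444.5), and 1012 bp from that of RabGGTa (389.9), and the nearest outside it 980 bp from CG34282 (218.9) and 972 bp from CG4733 (713.3).

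By chromosome arm the density was 20.2 per Mb (17.3 to 23.5) on 3L, 18.0 (14.8 to 21.7) on 2L, 15.8 (13.0 to 19.0) on 3R, 11.7 (9.27 to 14.5) on 2R and 11.4 (8.64 to 14.9) on X, with 5 summits on chromosome 4. Without the gaps of 4 or more summits, 3L fell to 12.4 and 3R stood highest of the large arms at 15.1. Between divergently transcribed genes there were 20.9 per Mb (17.8 to 24.5), between convergent genes 17.1 (14.3 to 20.3) and between genes in tandem 14.8 (13.0 to 16.8), and without the gaps of 4 or more summits 17.6, 13.8 and 11.1. The nearest TSS belonged to a protein-coding gene for 352 summits (65.9%, against 66.8% of eligible bases), to a non-coding RNA for 166 (31.1%, against 26.0%) and to a tRNA gene for 15 (2.81%, against 0.824%). Most of the tRNA cases came from a pair of gaps: 6 of them lay in the hng3-CG13898 gap and 5 between Dip-B and tal-1A.

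The genes on either side of an intergenic summit numbered 646, or 4.63% of all 13945 protein-coding genes and 10.6% of the 6111 with eligible sequence beside them. Of these 646, 30.3% (26.9 to 34.0) also had an optimal summit within 1 kb of a TSS of their own, against 25.3% (24.3 to 26.5) of genes beside eligible sequence. The share of genes that flank a summit rose with the eligible sequence they have, up to 50 kb. By the rule, the 7834 genes with none cannot flank a summit. Over genes with some eligible sequence but no more than 1 kb the share was 1.17% (0.814 to 1.67). It was 7.69% with 1 to 2 kb, 10.9% with 2 to 5 kb and 11.7% with 5 to 10 kb. With 10 to 20 kb it was 20.2%, with 20 to 50 kb 30.8% and with over 50 kb 30.5% (24.9 to 36.8). Counts for gene lists are therefore given with the median eligible sequence beside the list's genes. Some are set beside the share over all genes in the class that holds that median. Such a comparison is not exact, because genes within a list differ in eligible sequence.

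Forkhead and T-box genes, which encode transcription factors of mesoderm, gut, heart and segmentation, had the highest share of any list but the 3 Iroquois genes: 10 of 16 flanked an intergenic summit (62.5%, 38.6 to 81.5), with a median of 16.0 kb beside them. Over all genes with 10 to 20 kb the share was 20.2% (17.3 to 23.4). The 10 were foxo, slp1, slp2, bin, croc, fkh, Doc1, Doc2, mid and H15, and had 17 summits between them. Of these, the summits in the slp1-slp2, Doc2-Doc1 and H15-mid gaps each lay beside a gene of the list on both sides. Genes that share a gap are not independent, so the interval of the list is too narrow. The summit between slp1 and slp2, a pair of pair-rule and segment polarity factors, had a signal value of 869.8 and ranked 403, 664 and 742. The stronger of 2 summits upstream of bin, which specifies visceral mesoderm, had a signal value of 814.1 and ranked 897, 754 and 445. The values of fkh and the Doc genes are given after they were seen. The 3 summits in the gap beside fkh, a gut and salivary gland regulator, had signal values from 311.3 to 414.2, and each of them was in every replicate's top list. Between the Doc2 and Doc1 genes, cardiac and dorsal T-box factors, 3 summits had signal values from 251.6 to 499.8, and 1 of them was in every top list.

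Segmentation and homeotic genes are given next. Gap and pair-rule genes numbered 6 of 19 (31.6%, 15.4 to 54.0; median 22.6 kb): hry, kni, ems, oc, slp1 and slp2. Their share was near the 30.8% (27.4 to 34.5) over all genes with 20 to 50 kb, and slp1 and slp2 also count among the forkhead genes. The strongest summit beside kni, a gap gene that also patterns the wing, lay nearer to cmpy, with a signal value of 529 and ranks of 1499, 1271 and 1539. Homeotic genes numbered 3 of 8 (37.5%, 13.7 to 69.4; median 10.6 kb). Over all genes with 10 to 20 kb the share was 20.2% (17.3 to 23.4). Beside abd-A lay 2 summits, and the stronger was 1733 bp from the TSS of a non-coding RNA. It had a signal value of 1407 and ranked 175, 279 and 253. Dfd and Scr share a gap with 1 summit of 226.9, which ranked 4144, 6276 and 4613 and so missed the top list of replicate 2. Retinal determination genes numbered 3 of 9 (33.3%, 12.1 to 64.6; median 12.8 kb), with eyg and toe again on either side of 1 summit. The intervals of the homeotic and retinal lists include that 20.2%. Notum and wing regulators numbered 5 of 21 (23.8%, 10.6 to 45.1; median 23.9 kb), namely hth, kni, nub, tup and wg. Their share was below the 30.8% over all genes with 20 to 50 kb, which their interval includes. The strongest beside hth, the TALE partner of the Hox proteins, lay 254 bp beyond CG6465 with a signal value of 484.4 and ranks of 1180, 3319 and 1589.

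Genes of 3 signalling pathways had shares near that of the notum and wing regulators, with a lower median of eligible sequence over each list. EGF receptor pathway genes numbered 3 of 13 (23.1%, 8.18 to 50.3; median 0.268 kb), namely aop, a repressor of the Ets family (582.8), sty, the sprouty inhibitor (572.1), and vn, a ligand (352). Wingless and Hedgehog pathway genes numbered 4 of 16 (25%, 10.2 to 49.5; median 3.73 kb), namely fz, a Wingless receptor gene (728.6), ptc, the Hedgehog receptor gene (632.1), wg and Wnt4. Notch pathway genes numbered 3 of 14 (21.4%, 7.57 to 47.6; median 1.41 kb), namely numb (538.9), E(spl)mbeta-HLH (513.1) and the ligand gene Ser (342.7), and the BMP pathway had 1 of 14, sog (median 0.0215 kb). Each value is the signal value of the strongest summit beside the gene. NK homeobox and muscle identity genes numbered 2 of 14 (median 5.51 kb), proneural and neurogenesis genes 2 of 16 (2.63 kb), GATA factors and their cofactor 1 of 6 (4.06 kb) and ecdysone response genes 1 of 9 (0.123 kb). The Wilson intervals of all of these lists include the 10.6% of genes beside eligible sequence, a share not matched for the amount of that sequence. The EGF receptor, ecdysone and BMP lists, with medians under 1 kb, had lower bounds of 8.18, 1.99 and 1.27%. Over genes with some eligible sequence but no more than 1 kb the share was 1.17% (0.814 to 1.67), and genes with none cannot flank a summit. Genes within a list differ in eligible sequence, so neither comparison is exact. The median need not describe the genes counted: the summits beside sty lay in a gap of 21.1 kb, and that beside numb lay 26797 bp from numb.

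The remaining lists had shares below that 10.6%, and all but the immunoglobulin list have a median of under 1 kb of eligible sequence. Chemoreceptor genes numbered 10 of 179 (5.59%, 3.06 to 9.98; median 0.256 kb). The share over genes with some eligible sequence but no more than 1 kb was 1.17%. Neuronal immunoglobulin recognition genes numbered 3 of 54 and cytoplasmic ribosomal protein genes 4 of 92, with none of the 11 heat shock genes (an upper bound of 25.9%; median 0 kb). Ribosomal protein genes have little eligible sequence beside them, with a median of 0 kb, and 78 of the 92 had an optimal summit at their own promoter. The immunoglobulin genes had a median of 12.8 kb beside them and a share of 5.56% (1.91 to 15.1). Over all genes with 10 to 20 kb the share was 20.2% (17.3 to 23.4). Their strongest summit, at 1121, lay in the gap from dpr17, a cell surface gene of synaptic pairing, to CG4702. It was 9955 bp from dpr17 and 208 bp from CG4702, with ranks of 357, 384 and 329. Among chemoreceptor genes the summit between Cad89D and Gr89a had a signal value of 637.7 and ranked 1063, 1125 and 1014.

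**Figure D3:**
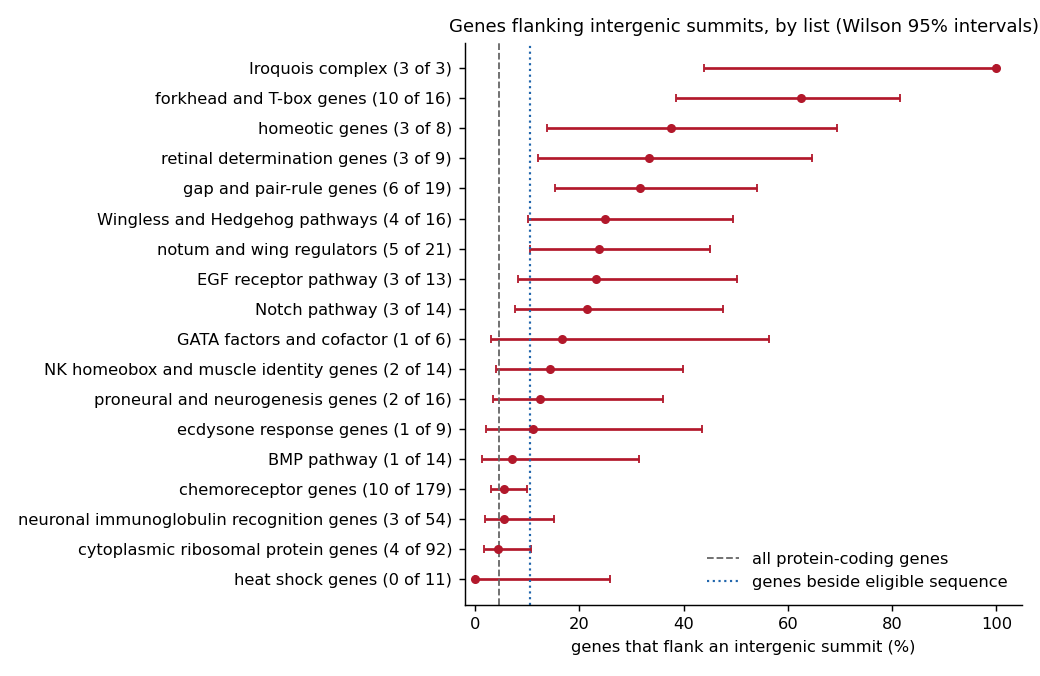
Share of each list's genes that flank an intergenic summit (x axis, percent), with counts in brackets and Wilson 95% intervals as bars; the dashed line is the 4.63% of all protein-coding genes and the dotted line the 10.6% of genes beside eligible sequence. The forkhead and T-box list stands at 62.5% and the ribosomal protein list at 4.35%.

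The Iroquois genes themselves had weak intergenic summits, with 1 exception. The gaps beside ara, caup and mirr held 6 in all. The 1 between ara and caup lay 3169 bp from the TSS of caup with a signal value of 591.3, at percentile 81.0 of the optimal peaks. It ranked 723 in replicate 2 and 1381 in replicate 3, and no region of replicate 1 covered it. The 5 in the 71.8 kb gap from caup to mirr had signal values from 224.6 to 258.9, at percentiles from 9.71 to 26.1, and 1 of them was in the top lists of all 3 replicates, 8753 bp from mirr, with ranks of 5953, 4511 and 4939. No member lay in the gaps from sowah to ara or from mirr to SmD1, with 6.13 and 23.1 kb of eligible sequence.

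Intergenic summits were weaker than the rest of the set. Their median signal value was 293.8 (208.6 to 2620), against 313.2 for intronic summits over 1 kb from TSSs and 351.2 for summits within 1 kb of a TSS. The intergenic share fell from 12.0% (10.3 to 14.0) in the lowest quintile of optimal peaks by signal value to 6.77% (5.49 to 8.33) in the highest, and below the optimal set, among the other 23944 pooled regions, it was 18.1% (17.6 to 18.5). Ranks within each replicate pointed the same way: the median rank percentile of intergenic summits was 86.1, 87.7 and 88.7 in replicates 1, 2 and 3, and that of intronic summits 87.5, 89.0 and 89.3. The mean difference was -1.08 (SD 0.445, n = 3; exact two-sided sign-flip permutation p = 0.25, the smallest that 3 replicates allow), and against promoter summits -3.18 (SD 1.51, n = 3; exact permutation p = 0.25). All 3 replicates had the same sign, and the design cannot reach a threshold of 0.05. The pooled signal values and the optimal set were made from these replicates, so their ranks are not an independent check of the pooled values.

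The replicates found most of these summits again. The top 6056 regions of replicate 1 held 400 of the 534 (74.9%), those of replicate 2 held 423 (79.2%) and those of replicate 3 held 467 (87.5%). For promoter summits replicate 1 held the largest share at 86.5%, followed by replicate 3 at 85.7% and replicate 2 at 82.9%, so the order of the replicates was not the same for both kinds of site. In all 3 top lists were 295 intergenic summits (55.2%, 51.0 to 59.4), against 59.3% of intronic and 65.5% of promoter summits and 62.7% of all optimal peaks. Since the optimal set was made from these replicates, these shares describe it and do not test it. In the lowest quintile by signal value 3.42% of intergenic summits were in all 3 lists, and in quintile 4 of 5 it was 96.5% (90.1 to 98.8), against 94.9% (92.0 to 96.8) of intronic and 92.1% (89.9 to 93.8) of promoter summits. In the highest quintile the share was 91.5% (83.4 to 95.8), against 96.0% and 97.2%. Only 6 were in no top list, among them the summit between vvl and Prat2 at 213.2, which ranked 6272, 6612 and 6322, just past the border. Of the 82 in the highest quintile, 7 missed a list, and each of the 7 had no region over it in at least 1 replicate. Among them were the summit beside the chemoreceptor gene Ir94a (794.5, with no region in replicate 1) and that between ara and caup.

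**Figure D4:**
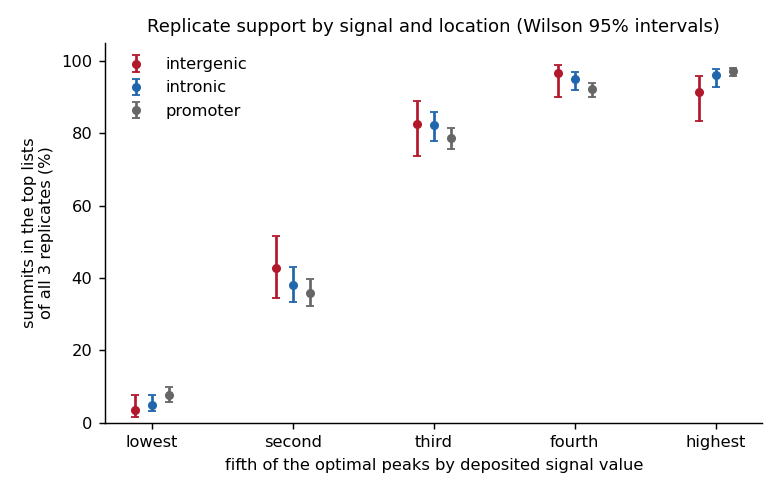
Share of summits in the top lists of all 3 replicates (y axis, percent) by quintile of the optimal peaks by deposited signal value (x axis) for intergenic, intronic and promoter summits; bars are Wilson 95% intervals. Support runs from 3.42% in the lowest quintile to 96.5% in quintile 4 for intergenic summits. In the highest quintile it is 91.5% (83.4 to 95.8) for intergenic and 97.2% (95.9 to 98.1) for promoter summits.

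Peak shape bears on how exact these positions are. Of the 534 peaks, 304 (56.9%) were exactly 420 bp wide with the summit at the middle, against 53.6% of intronic and 54.9% of promoter peaks. Those 304 had a median signal value of 250.9 and 33.2% of them were in all 3 top lists, against 449.4 and 84.3% for the others. The summits of the replicates lay a median of 18, 14 and 15 bp from the pooled summit.

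The sequence at intergenic summits had less G and C than its flanks. Median GC within 100 bp of the summit was 36.3%, against 42.3% in windows centred 500 bp to each side, 41.3% in all eligible windows of that length and 42.8% at intergenic summits among the 10000 weakest pooled regions. At the replicates' own summits the median was 36.3, 36.3 and 35.8% in replicates 1, 2 and 3, and at their flanks 42.0, 41.8 and 41.8%. The mean difference was -5.72 percentage points (SD 0.249, n = 3, exact two-sided sign-flip permutation p = 0.25). The replicate summits lay a median of 18, 14 and 15 bp from the pooled ones, so their windows share most bases. The SD therefore reflects small shifts of the summit, and the replicates are not independent readings of the sequence. In short windows of 25 bp to each side, mean GC was 36.2% at the summit and rose to 44.1 and 44.6% at 250 bp to either side before it settled near 41%. The AT-rich word TATAAA, the TATA box, was found at 32.0% (28.2 to 36.1) of intergenic summits and 23.1% (20.7 to 25.7) of flanks, and its part in the low GC was not tested.

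The Iroquois palindrome was about as frequent at intergenic summits as 500 bp beside them, and more frequent than in eligible sequence at large. ACANNTGT lay within 100 bp of 54 summits, 10.1% (7.83 to 13.0), against 11.0% (9.31 to 13.1) of windows 500 bp away, a ratio of 0.915. With windows 1000 bp away the share was 8.24% and the ratio 1.23, and with windows 2000 bp away, a distance added after seeing the data, 7.02% (5.64 to 8.71) and 1.44, so the side of 1 on which it falls depends on the flank chosen, and in all eligible windows the share was 6.82%. In introns the ratio was 1.40 with flanks at 500 bp, 1.38 at 1000 bp and 1.54 at 2000 bp, and at promoters 1.28, 1.40 and 1.49. At the replicates' own intergenic summits the palindrome was found in 10.7, 9.70 and 10.1%, and in their flanks in 9.90, 10.5 and 10.8% (mean difference -0.253 percentage points, SD 0.879, n = 3; exact permutation p = 1.0). These replicate windows share most of their bases too, so they are not independent readings. At the pooled summits the palindrome's share was 9.80% (7.13 to 13.3) at 1 to 5 kb and 10.7% (6.98 to 16.2) over 5 kb from a TSS. TGTNNACA, the palindrome with its arms exchanged, was found at 9.36% of summits and 6.46% of flanks.

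Another family of words was more frequent at the summits. ACACTG lay within 100 bp of 96 intergenic summits, 18.0% (15 to 21.5), against 6.37% (5.05 to 7.99) of flanks and 7.12% of all eligible windows. At the replicates' own summits it was found in 19.0, 17.9 and 17.1%, and in their flanks in 6.10, 5.89 and 6.46%. The mean difference was 11.9 percentage points (SD 1.16, n = 3, exact permutation p = 0.25). As for GC, the replicates' windows share most bases, so their agreement is not independent. The share hardly differed with distance, at 17.6% from 1 to 5 kb and 18.6% beyond, and promoter summits had 19.4%. Among 1708 6-mers at 20 or more summits the highest ratios to flanks were those of ACTAGT at 3.33, AGTATG at 3.02, CTACAC at 2.85, ACACTG at 2.82 and ATCTAG at 2.69, and overlapping relatives of ACACTG such as CACTGA (2.64) and AGTGTA (2.49) followed.

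The overlapping words can be joined into a longer one, chosen after its values were seen and so described without a test. CACTGAGA, read on both strands, lay within 100 bp of 40 intergenic summits, 7.49% (5.55 to 10), against 1.03% (0.576 to 1.83) of flanks and 0.680% of all eligible windows. It was found at 4.32% (3.46 to 5.39) of intronic and 1.86% (1.48 to 2.35) of promoter summits, against 0.613 and 0.486% of their flanks. The ratio to flanks was thus 7.05 at intronic summits, close to the 7.27 at intergenic summits, and 3.83 at promoters. Among the 10000 weakest pooled regions, 2.39% of the intergenic summits had the word. The 40 intergenic summits of the optimal set with the word lay in 39 different gaps, 17 of them were over 5 kb from a TSS and 18 also had ACACTG. Their median signal value was 289.6, close to that of all intergenic summits, and 23 were in every top list. In windows of 50 bp to each side the word was found at 4.31 and 3.75% of positions 100 bp to the left and right, against 2.43% at the summit itself and 0.187% at 200 bp to either side. In the windows printed above its leftmost base lies 62 bp right of the summit between slp1 and slp2, at 92 bp left and 36 bp right beside noc and at 5 bp right beside Gr89a.

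**Figure D5:**
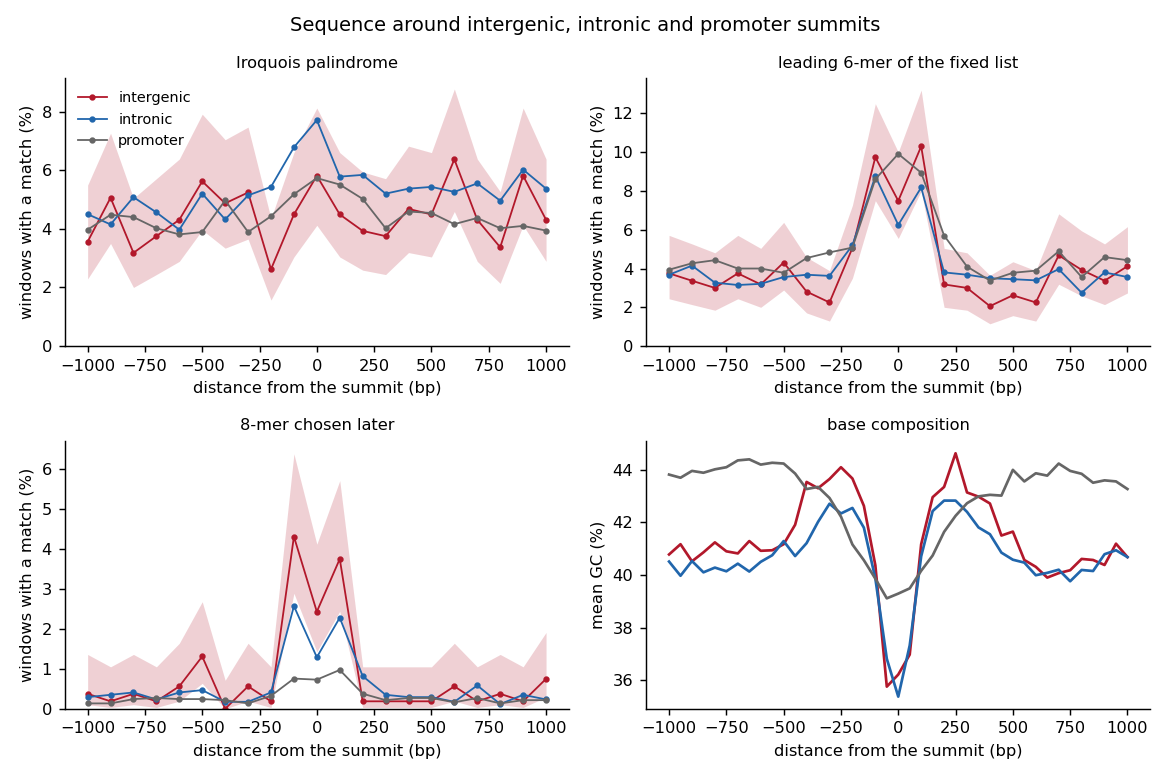
Share of windows of 50 bp to each side with a match (y axes, percent) by distance from the summit for the Iroquois palindrome ACANNTGT, the 6-mer ACACTG and the 8-mer CACTGAGA, and mean GC of windows of 25 bp to each side, at intergenic, intronic and promoter summits; the band is the Wilson 95% interval of the intergenic class. The intergenic palindrome line stays between 2.62 and 6.37%, the 6-mer reaches 10.3% and the 8-mer 4.31% within 100 bp of the summit, and GC dips to about 36%.

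Of the words known from fly promoters, TATAAA was about as frequent at intergenic as at promoter summits (30.3%, 28.9 to 31.8), and a pair of others were rarer. TATCGATA, the DNA replication-related element, was found at 6 intergenic summits, 1.12% (0.516 to 2.43), against 5.64% of promoter summits. It was found in 3 of the windows flanking the intergenic summits, 0.281% (0.0956 to 0.823). GGTCACAC, known as Ohler 1, was found at 0.187% of intergenic summits, the single summit between slp1 and slp2. The share was 0.187% in their flanks and 4.46% at promoter summits. The E box CAGCTG was found at 3.75% (2.44 to 5.71) of intergenic summits, 7.02% (5.64 to 8.71) of their flanks and 12.7% (11.7 to 13.9) of promoter summits. GAGAG, the GAGA factor word, was about as frequent at intergenic summits (21.7%) as in their flanks (22.0%) and in all eligible windows (21.0%). It was found at 17.9% (14.3 to 22.2) of summits 1 to 5 kb from a TSS and at 29.4% (23.2 to 36.5) of those farther away. The flanks of each distance class were not searched separately, so this difference was not set against background.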

How the data were processed

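Anti-GFP chromatin immunoprecipitation and sequencing of 3 biological replicates was analysed from the region lists that the authors deposited on dm6: 30000 regions per replicate, 30000 regions pooled over the replicates, and 6056 optimal peaks that passed the authors' test of irreproducible discovery between replicates. Each row of the deposited lists gives a signal value, which the authors computed as an enrichment statistic, and a summit offset. The −log10 q-values that the authors deposited beside it were not used to rank. The aligner, the caller and the cut-off are not named by the labels or headers. Lists on dm3 were not used.

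Genes came from Ensembl release 115 (18164 genes with 23581 distinct TSSs on arms 2L, 2R, 3L, 3R, 4 and X); 5809 transposable elements were not counted as genes. Lists were compared by rank: a replicate's top list is its 6056 regions of highest signal value. Motifs were searched on both strands. Shares carry Wilson and densities exact Poisson 95% intervals, for counting error only. Replicates were compared by exact sign-flip permutation, where 0.25 is the smallest p. Python 3.11.15, numpy 2.4.6, pandas 2.3.3, scipy 1.17.1 and matplotlib 3.10.9 were used, and the code was tested on simulated data.

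The summits and gene lists were chosen with earlier results of these data known, and the 8-mer, the flanks at 2000 bp and the treatment of transposable elements, pseudogenes and dense gaps after seeing the data. Named are the 10 strongest and the 5 farthest summits, the 5 gaps with most summits, those beside ara, caup and mirr, up to 4 genes per list, and the 2 nearest to the threshold on each side. 2 names of the lists found no match and are not analysed here.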

Additional observations from a re-analysis of the deposited data

How the results depend on the processing

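The number of intergenic summits was 534 in the report, 721 when only protein-coding genes defined starts and bodies, 673 with a distance of over 500 bp, 399 with over 2000 bp, 514 with overlapping peaks merged and 509 with transposable elements counted as genes. The share over 5 kb from a TSS was 48.7% with protein-coding genes only, 26.3% over 500 bp and 44.4% over 2000 bp. The share of protein-coding genes that flank a summit was 5.69, 5.98 and 3.53% under the same settings, and 2.77% when only the gene with the nearest start was taken. Densities for divergent genes were 24.6 and 25.4 per Mb and for genes in tandem 17.8 and 17.6 per Mb with protein-coding genes only and over 500 bp; tandem fell to 12.4 over 2000 bp and was 16.9 with transposable elements counted as genes. Above the median signal value of the optimal set, 215 summits were left. Their median percentile of 48.8 was taken among the peaks above that median only, so it cannot be set against the report's value. They flanked 2.17% of genes, with 8.94, 5.9 and 6.51 per Mb in divergent, tandem and convergent gaps. Without gaps of 4 or more summits these densities were 17.6, 11.1 and 13.8. The palindrome's ratio of summit to flank share was 1.02 over 500 bp, 1.04 over 2000 bp, 1.15 with windows of 50 bp to each side, 1.23 with flanks at 1000 bp and 1.44 at 2000 bp, against 0.915 in the report, so it crossed 1 and no direction is drawn from it; its share was 5.81% at 50 bp and 18.7% at 200 bp. Median GC was 34.7% at 50 bp and 39.7% at 200 bp. Support by all 3 replicates rose to 94.2% with top lists 2 times as long and 96.1% with whole lists.

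Leaving out 1 replicate at a time, with a summit kept where both other top lists held it, left 340 to 374 summits (63.7 to 70.0%), a median percentile of 53.7 to 57.5 among all optimal peaks against 39.5 in the report, since summits held by both top lists are the stronger ones, 3.28 to 3.51% of genes, and 13.2 to 14.8, 9.45 to 10.7 and 10.3 to 11.1 per Mb. No paired analysis was possible because the study has 1 group and so no groups to pair; summits were set against flanks, and against other summits, within each replicate. Depth is unknown, so no limit of detection can be set.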
